A study of Mus musculus with 18 samples.

Results

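The probes described here are the custom probes of a mouse testis array, those whose identifier starts with CUST. They were chosen by identifier alone, and 527 of the 37820 probes in the deposited table met the rule. A CUST identifier holds a number and a suffix, and 2 suffixes occurred. Suffix PI426409190 covered 245 probes with numbers between 1 and 316, and suffix PI426073487 covered 282 probes with numbers between 12 and 962. Probes are written here by number, as in CUST_224, when they carry PI426409190, and in full when they carry PI426073487. Whole testes of mice were measured at 6 stages with 3 arrays each, which gave 18 arrays. The stages were embryonic days 12.5 and 15.5 (E12.5, E15.5), postnatal days 7, 14 and 21 (P7, P14, P21) and the adult. The labels give no strain, genotype, treatment or adult age. All groups share the tissue and the protocol, and stage is the only factor that the labels state. The arrays are numbered 1 to 3 within a stage with no statement of separate animals or litters, so p-values describe no more than the spread among these arrays, and that spread may be technical.

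The fetal testis forms cords in which germ cells are enclosed by Sertoli cells, the somatic cells that support them, while Leydig cells outside the cords make androgens. After birth, spermatogonia divide and enter meiosis as spermatocytes, and round and elongating spermatids appear later, so that a whole testis holds a changing mixture of cells from stage to stage. In such bulk samples, fewer cells of a type and less RNA per cell cannot be told apart. Agilent's array design software gives identifiers of the CUST form to probe sequences that a user uploads, and the identifier states neither the sequence nor the target. None of the CUST identifiers matched a gene in the tables used here (0 matched). Every result below is therefore a property of a probe, the labelled tissue could not be checked through these probes, and no gene is named.

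Values are hybridisation signals on a scale taken to be log2, from 2.38 to 18.34 over the whole table, so that a difference of 1 is 2-fold. Low values carry no detection call, and folds that start from them are differences between signals that may lie in the background. Over the CUST probes, arrays of a stage correlated with each other at 0.913 to 0.995, and 2 arrays stood apart. E12.5 replicate 2 had a mean correlation of 0.915 with its own stage and 0.941 with P7 replicate 2. P21 replicate 1 differed from the other P21 arrays by a median of 0.80 and 0.66, while these 2 differed from each other by 0.29. E12.5 replicates 1 and 3 lay closest of all, at a median difference of 0.09 and a correlation of 0.995, against 0.13 to 0.80 for the other pairs within a stage. The spread at E12.5 therefore rests largely on replicate 2. Values without the 2 arrays are given where they change a count by a large ratio or change a call, and smaller shifts are mostly not given.

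Most custom probes differed between stages, at a share below that of all probes. In the limma F test over the 6 stages, 357 of the 527 CUST probes (67.7%) differed, beside 73.7% of all deposited probes. A differing probe had an adjusted p under 0.05 and a range of stage means of at least 1. The share was 83.3% (204 of 245) for PI426409190 and 54.3% (153 of 282) for PI426073487. The split by suffix was made after the identifiers were seen, and the difference between the suffixes was not tested. The median range between the highest and lowest stage mean was 2.92 for PI426409190 and 1.32 for PI426073487, beside 2.09 for all probes. A range of at least 5 was seen in 70 probes of the first suffix (28.6%), in 7 of the second (2.48%) and in 8.38% of all probes.

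The suffixes also separated by brightness. The median of the mean signal over 18 arrays was 9.45 for PI426409190, 7.05 for PI426073487 and 7.93 for all probes, and the quartile bounds of all probes were 6.53, 7.93 and 10.1. Of the PI426409190 probes, 108 (44.1%) lay in the brightest quartile, and of the PI426073487 probes, 113 (40.1%) lay in the dimmest. A mean signal of at least 16 was reached by 13 CUST probes (2.47%), beside 1.81% of all probes. All 13 carried PI426409190 (5.31% of that suffix). Brightness moved with the share of probes that differed: among all probes it rose from 55.2% in the dimmest quartile to 88.7% in the brightest. Within quartiles the share for PI426409190 was 69.4%, 76.7%, 87.9% and 88%, and for PI426073487 it was 34.5%, 52.6%, 67.8% and 100%. In the brightest quartile all 34 PI426073487 probes differed. Calls between P14 and P21 were made, from the dimmest to the brightest quartile, in 22.2%, 30.2%, 53.4% and 42.6% of PI426409190 probes. The shares were 2.65%, 9.21%, 6.78% and 17.6% for PI426073487 and 11.2%, 21.8%, 31.5% and 29.7% for all probes. The mean signal includes the P21 and adult arrays, so a late rise itself moves a probe to a brighter quartile, and these quartiles do not match probes for brightness apart from the change.

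The brightest probes hardly changed. CUST_40 had stage means between 17.85 and 18.10, CUST_83 between 17.35 and 17.71, and CUST_79 between 17.31 and 17.67, and none of them passed the F test (limma, adjusted p 0.288, 0.153 and 0.159). Whether such signals reached the limit of the scanner was not tested. CUST_40 also had one of the smallest ranges among probes at or above the median signal, 0.25, after CUST_753_PI426073487 with stage means from 8.22 to 8.38 and before CUST_661_PI426073487 with 7.98 to 8.26. At the dim end, CUST_831_PI426073487, CUST_929_PI426073487 and CUST_117 had mean signals of 4.75, 4.87 and 4.89. Replicate spread varied among these dim probes. The adult arrays of CUST_831_PI426073487 ran from 2.59 to 4.47 (SD 1.03), whereas its E12.5 arrays had an SD of 0.08 and the P14 arrays of CUST_929_PI426073487 an SD of 0.02.

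From E12.5 to E15.5, 122 CUST probes (23.1%) changed by at least 2-fold at a limma adjusted p under 0.05, 70 higher and 52 lower, where 20.1% of all probes were called, 10.6% higher and 9.46% lower. The direction went with the suffix. PI426409190 had 59 higher and 16 lower, and PI426073487 had 11 higher and 36 lower. Without E12.5 replicate 2 the 11 became 22, without E12.5 replicate 1 they became 5, and without the 2 arrays that stood apart they became 24. The 16 lower probes of PI426409190 became 10 without E15.5 replicate 3.

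CUST_87 gave the largest rise of this interval. Its 3 arrays at E12.5 read 4.33, 5.98 and 4.49, and those at E15.5 read 10.88, 10.49 and 10.67, a rise of 5.74 (SE 0.33, limma adjusted p 6.64e-09) or 53.6-fold. The stages did not overlap, and the probe started near the bottom of the scale. The opposite course was that of CUST_201_PI426073487. At E12.5 it read 13.29, 10.06 and 13.29, and at E15.5 it read 5.17, 4.93 and 4.91. This was a fall of 7.21 (SE 0.77, adjusted p 7.12e-06), and without the 2 arrays that stood apart the change was -8.28. E12.5 replicate 2 lay more than 3 units under the other E12.5 arrays and still above every E15.5 array.

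From E15.5 to P7, 91 CUST probes (17.3%) were called, 33 higher and 58 lower, beside 15.7% of all probes, 7.5% higher and 8.23% lower. Of the 58 falls, 52 were in PI426409190, which had 13 rises. PI426073487 had 20 rises and 6 falls. Without E15.5 replicate 2 the 13 rises of PI426409190 became 8. CUST_201_PI426073487 gave the largest rise as well, from its low at E15.5 to 11.29, 9.40 and 8.88 at P7, a change of 4.85 (SE 0.77, adjusted p 3.41e-04). The probe was thus low at a single stage, because at P14 it read 12.13, 12.14 and 12.27. CUST_103 fell most. It read 8.90, 8.30 and 8.57 at E15.5 and 4.70, 5.29 and 4.96 at P7, a fall of 3.60 (SE 0.38, adjusted p 9.47e-06), after which it rose by 1.97 to P14 (adjusted p 0.002).

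From P7 to P14, 86 CUST probes (16.3%) were called, 31 higher and 55 lower, beside 12.8% of all probes, 6.21% higher and 6.64% lower. PI426409190 held 16 of the rises and 45 of the falls, and PI426073487 held 15 rises and 10 falls. The rises rested on few arrays: 31 became 17 without P7 replicate 2 and 48 without the 2 arrays that stood apart, and the 15 rises of PI426073487 became 5 and 28. They became 27 without E12.5 replicate 2 alone, which enters through the shared estimate of spread. The 10 falls of PI426073487 became 6 without P14 replicate 1.

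A single P21 array set the error of the largest rise of this interval. CUST_280 read 6.74, 6.95 and 7.25 at P7 and 11.31, 11.26 and 11.19 at P14, a rise of 4.27 (SE 1.20, adjusted p 0.0218). At P21 it read 5.98 in replicate 1 and 12.95 and 12.85 in the others, and in adults it read 6.39, 6.33 and 6.75. The call was lost when any single array of P7 replicates 1 and 2 or of P14 was left out (adjusted p 0.0601 to 0.0659), although the change stayed between 4.15 and 4.30. CUST_224 fell most, from 10.19, 9.92 and 10.08 at P7 to 5.51, 6.01 and 5.44 at P14, a fall of 4.41 (SE 0.24, adjusted p 9.86e-09).

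From P14 to P21, 118 CUST probes (22.4%) were called, 85 higher and 33 lower. The background was 23.5% of all probes, 9.2% higher and 14.3% lower, beside 16.1% higher and 6.26% lower for CUST probes. Of the rises, 79 were in PI426409190 (32.2% of its probes), beside 19 falls. PI426073487 had 6 rises and 14 falls. The rises were also large. A called rise of at least 8-fold was seen in 55 CUST probes (10.4%), all of suffix PI426409190, beside 2.8% of all probes. A called fall of that size was seen in 0 CUST probes and in 0.198% of all probes, so this 0 is near the background. The median called rise was 4.48 in PI426409190 and 2.05 over all probes. The falls depended on single arrays: 33 became 51 without the 2 arrays that stood apart, the 14 of PI426073487 became 28, and these 14 became 9 without P21 replicate 3 and 22 without E12.5 replicate 2.

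CUST_224 rose most here, directly after the fall described above. At P21 it read 15.48, 15.96 and 15.79, which is 10.09 (SE 0.24, adjusted p 8.69e-13) or 1090-fold above P14. In adults it read 17.39, 17.42 and 17.33, one of the highest adult levels among the probes named here. Its values at E12.5 (9.35, 10 and 9.47) and E15.5 (9.40, 8.53 and 9) lay above those at P14, its lowest stage. The rise from E15.5 to P7 was also called (1.09, SE 0.24, limma adjusted p 0.00446). CUST_61 fell most, from 10.46, 10.29 and 10.63 at P14 to 9.81, 6.89 and 7.20 at P21, a fall of 2.49 (SE 0.51, adjusted p 0.00158). P21 replicate 1 lay close to the P14 arrays, and without the 2 arrays that stood apart the change was -3.41.

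From P21 to adult, 172 CUST probes (32.6%) were called, 90 higher and 82 lower, beside 30.9% of all probes, 10% higher and 20.9% lower. PI426409190 had 72 rises and 41 falls, and PI426073487 had 18 rises and 41 falls. This split depended on the scale of the arrays, since the median over all probes moved by -0.33 as deposited and by -0.13 after quantile normalization. After that normalization the CUST split was 99 higher and 56 lower and that of PI426073487 was 21 and 22. The median change of CUST probes was -0.06 as deposited, which was 0.27 above that of all probes, and turned to 0.11 after quantile normalization and to 0.07 after centring each array. The 18 rises of PI426073487 became 29 without adult replicate 1, and its 41 falls became 26 without P21 replicate 2 and 64 without the 2 arrays that stood apart.

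CUST_266 rose most, and this was its one late rise. It read 4.77, 5.48 and 5.55 at P21 and 14.02, 14.11 and 14.12 in adults, a rise of 8.82 (SE 0.52, adjusted p 2.86e-09) or 451-fold. Its fetal arrays read 6.66 to 7.99, its P7 arrays 5.20 to 6.34 and its P14 arrays 3.28 to 5.85, so that every adult array lay above every earlier one. CUST_196 fell most. It read 6.49, 11.25 and 11.09 at P21 and 3.37, 5.22 and 5.08 in adults, a fall of 5.05 (SE 1.05, adjusted p 0.00129). The change was -6.62 without P21 replicate 1.

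Between E12.5 and adult, the ends of the series, 292 CUST probes (55.4%) were called, 165 higher and 127 lower, beside 58% of all probes, 23.9% higher and 34.1% lower. The total was near the background, and the balance of directions was the reverse of that of all probes. PI426409190 had 116 higher (47.3% of its probes) and 54 lower, and PI426073487 had 49 higher and 73 lower. A called rise of at least 8-fold was seen in 73 probes of PI426409190 (29.8%) and 12 of PI426073487 (4.26%), beside 9.04% of all probes. A called fall of that size was seen in 10 (4.08%) and 21 (7.45%), beside 11.6% of all probes. The median change was 0.74 in PI426409190, -0.26 in PI426073487 and -0.29 in all probes. After quantile normalization the medians were 0.88, 0.07 and -0.04, and PI426073487 had 58 higher and 54 lower, so that its direction turned. After centring it had 53 higher and 64 lower.

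CUST_219 rose most between the ends, from 5.07, 6.13 and 4.70 to 14.36, 14.25 and 14.11, a rise of 8.94 (SE 0.42, adjusted p 4.52e-11). It read 9.32, 11.22 and 10.89 at P21, between the ends, and 4.40, 4.38 and 4.53 at P14. CUST_78 fell most, from 14.31, 13.09 and 14.29 to 6.63, 7.13 and 7.41, a fall of 6.84 (SE 0.48, adjusted p 3.68e-09). Its stage means declined at each step, 13.90, 13.23, 12.01, 11.64, 9.25 and 7.06 in order of age, and the last 2 steps were called.

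The stage of the highest mean was the adult for 146 of the 357 differing CUST probes (40.9%), where it was the adult for 25.3% of all differing probes. E12.5 held 61 (17.1%), E15.5 70 (19.6%), P7 25 (7%), P14 34 (9.52%) and P21 21 (5.88%). Among all differing probes these stages held 20%, 23.7%, 9.7%, 10.6% and 10.7%. In PI426409190, 104 of 204 (51%) were highest in adults and 46 (22.5%) at E15.5. In PI426073487, 42 of 153 (27.5%) were highest in adults and 41 (26.8%) at E12.5. The assignment to P21 was the least stable, since 21 became 58 without P21 replicate 1, 13 without P21 replicate 2 and 61 without the 2 arrays that stood apart, and P14 then held 19.

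A clear peak was rarer. In 101 CUST probes the highest stage was 2-fold or more above each other stage, and for 80 of them (79.2%) that stage was the adult, beside 52.6% over all probes. For PI426409190 this was 68 of 75. For PI426073487 it was 12 in adults and 12 at E12.5 of 26. At P7 there was no such probe among CUST probes (0). Over all probes, P7 held 2.86% of such peaks, so this 0 is near the background.

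The probes with the largest lead of their highest stage show what each class looks like. In adults these were CUST_266, CUST_48 and CUST_8, ahead of the next stage by 6.37, 6.22 and 5.25. CUST_48 read 14.98, 14.77 and 14.82 in adults and 8.06, 9.09 and 8.77 at P21. CUST_8 read 12.72, 12.52 and 12.46 in adults and 6.35, 7.89 and 7.73 at P21. In both, the adult arrays stood clear of all others, and a smaller rise from P14 to P21 was also called.

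All 3 leading probes of E12.5 carried PI426073487. CUST_915_PI426073487 read 11.57, 12.06 and 11.68 at E12.5 and led by 2.03. Its stage means then declined from 9.75 at E15.5 to 6.25 in adults. CUST_931_PI426073487 followed the same course, with 11.44, 11.42 and 11.42 at E12.5, a lead of 1.82 and 3.41, 5.27 and 5.39 in adults. CUST_151_PI426073487, with a lead of 1.57, differed from both: it read 10.61, 8.50 and 10.61 at E12.5, dropped to 6.28, 6.11 and 6.00 at E15.5 and returned to 8.73, 8.22 and 8.08 at P7. Its E12.5 replicate 2 lay within the range of the P7 arrays.

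At E15.5 the leading probes were CUST_93, CUST_302 and CUST_216, with leads of 2.09, 1.39 and 1.1. CUST_93 read 12.28, 12.33 and 12.30 at E15.5, against 9.46, 11.10 and 9.57 at E12.5 and 9.90, 10.41 and 10.35 at P7. It was called higher against E12.5 (2.26, SE 0.46, adjusted p 0.00198) and lower at P7, and so were the other 2.

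Leads at P7 were small. CUST_268 and CUST_291 rose over the first 2 intervals, from E12.5 means of 9.81 and 10.37 to P7 means of 13.98 and 14.07, and led P14 by 0.75 and 0.64. CUST_196, which fell steeply in adults, led by 0.67 at P7 and was not called in any earlier interval. Its E12.5 arrays read 7.53, 10.96 and 7.53, with replicate 2 at the level of the E15.5 arrays.

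At P14 the leading probe was CUST_230. At E12.5 it read 5.23, 4.85 and 5.30. It rose to 9.58, 9.17 and 9.47 at E15.5 and read 9.20, 8.99 and 8.86 at P7. It reached 11.20, 11.17 and 11.09 at P14, then read 9.33, 8.95 and 9.06 at P21 and 6.55, 7.32 and 7.13 in adults. Replicates of this probe lay within 1 unit of each other at every stage, and 4 of its 5 intervals were called. The next 2, CUST_897_PI426073487 and CUST_899_PI426073487, instead had their low at E15.5. Their stage means there were 8.62 and 12.79, against 11.84 and 15.08 at E12.5 and 13.36 and 16.15 at P14. The lead of CUST_897_PI426073487 at P14 was 1.43 and became 0.32 without E12.5 replicate 2, because the other E12.5 arrays read 13.03 and 13.04. That of CUST_899_PI426073487 was 0.83 and became 0.39 without P21 replicate 2.

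At P21 the leads rested on few arrays. CUST_32_PI426073487 read 11.49, 13.22 and 12.52 at P21 against 11.57, 11.35 and 11.19 in adults, a lead of 1.04 that became 0.64 without P21 replicate 2. CUST_46 read 5.87, 6.34 and 8.59 at P21, and its lead of 0.85 became 0.02 without replicate 3. CUST_16 read 13.15, 14.33 and 14.37, and its lead of 0.72 became 1.12 without replicate 1. In all 3 probes, replicate 1 was the lowest P21 array.

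Read over the 5 successive intervals, profiles of called changes included several with a late rise. The 2 groups described here were picked from them after the values were seen. Successive intervals share a stage, so these profiles are descriptions. No interval was called in 246 CUST probes (46.7%), 176 of them in PI426073487, beside 43.1% of all probes. In the first group, a call upward to E15.5, a call downward to P7, a call downward or none to P14 and calls upward to P21 and to adult occurred together in 20 probes. All 20 carried PI426409190, which is 8.16% of that suffix, and 135 of all deposited probes (0.357%) had this profile. The medians of their stage means were 8.38, 12.28, 10.60, 9.51, 13.97 and 16.46 in order of age. Their adult means all lay between 12.87 and 17.32.

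CUST_81, CUST_113 and CUST_226, chosen after their values were seen, belong to this first group. CUST_81 went from 8.57, 9.28 and 8.76 at E12.5 to 12.94, 12.86 and 12.92 at E15.5. It then read 10.77, 10.66 and 10.93 at P7 and 10.08, 10.30 and 10.22 at P14. The rise to 14.27, 15.00 and 14.76 at P21 and to 16.86, 16.83 and 16.94 in adults took it above its fetal peak. CUST_113 followed with means of 9.87, 13.86, 12.48, 12, 15.35 and 17.32 in order of age.

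The second group had no call in the fetal interval or from E15.5 to P7, a call downward to P14 and calls upward to P21 and adult. It held 11 probes, all with PI426409190 (4.49% of that suffix), beside 123 of all probes (0.325%). The medians of their stage means were 8.02, 7.24 and 7.72 up to P7, then 5 at P14, 13.06 at P21 and 15.43 in adults. Their P14 means ran from 3.02 to 6.35 and their P21 means from 10.48 to 14.95, a separation that the profile used to choose them sets. The number of such probes was 6 without E15.5 replicate 1 and 16 without E12.5 replicate 2, while the first profile, with a call downward to P14, counted 10 to 14 probes when single arrays were left out, against 13 with all arrays. A further 13 CUST probes, 12 of them with PI426409190, were called upward in the last 2 intervals alone, beside 1.04% of all probes. The edges of these groups follow the thresholds. CUST_232 is in the second group with a change of -0.93 from E12.5 to E15.5, and CUST_253, at -1.01, is not. The profile of the second group with a call upward to P7 added was that of 4 CUST probes, among 9 of all probes.

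Probes with neighbouring numbers tended to have more similar profiles than pairs in general, and the likeness was uneven. Among 282 pairs of the same suffix whose numbers differed by 1, the median Pearson correlation over the 18 arrays was 0.27, with quartiles of -0.24 and 0.69. Over all 69511 pairs of the same suffix the median was 0.08. The same highest stage was shared by 32.3% and 22.1% of pairs, and a correlation of at least 0.9 was reached by 33 pairs (11.7%) and by 2.39%. These pooled shares mix the suffixes unequally, since PI426409190 supplied 188 of the 282 neighbouring pairs and 29890 of the 69511. Within PI426409190 the same highest stage was shared by 36.2% of neighbours and 27.3% of all pairs, and within PI426073487 by 24.5% and 18.2%. The points share arrays and stages, so these values are descriptions with n = 18 points each. Medians at differences of 2, 3, 4 and 5 were 0.13, 0.12, 0.08 and 0.16, so by the median the likeness lay mostly in the immediate neighbour. Close pairs reached further. In PI426409190 a correlation of at least 0.9 was reached by 10.9%, 6.67%, 7.89% and 9.38% of pairs at these differences, beside 4.56% of all its pairs.

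Close pairs were nearly all in one suffix. In PI426409190 a correlation of at least 0.9 was reached by 32 of 188 neighbouring pairs (17%) and by 4.56% of all its pairs. That share was 12.8% without any one of the adult arrays. In PI426073487 it was reached by 1 of 94 neighbouring pairs (1.06%) and by 0.750% of all pairs, and the median correlations were 0.16 and 0.08. Within PI426409190 the median was 0.69 for the 30 neighbouring pairs numbered 201 to 250, where 60% shared the highest stage. It was 0.46 for 46 pairs numbered 51 to 100, -0.08 for 10 pairs numbered 151 to 200 and -0.04 for 29 pairs numbered 251 to 300. For the 63 numbers that occur with both suffixes, the median correlation between the 2 probes was 0.04.

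The most similar neighbours were almost superposable. CUST_221 and CUST_222 correlated at 0.9998 and differed by a mean of 0.08 per array. In adults they read 17.19, 17.17 and 17.25 and 17.20, 17.19 and 17.27, and at E12.5 they read 8.95, 9.78 and 8.86 and 8.99, 10.09 and 9.02. CUST_226, with the same profile, differed from CUST_222 by a mean of 0.05. CUST_86 and CUST_87 correlated at 0.9995 and share the early peak described for CUST_87, with a second rise at P21 to means of 12.35 and 12.44 and adult means of 12.29 and 12.39. CUST_10 and CUST_11 correlated at 0.9975. They stayed at means of 5.40 to 6.34 from E12.5 to P14, reached 11.22 and 11.39 at P21 and held 10.98 and 10.97 in adults, so that their rise came in a single interval (4.88 and 5.16, limma adjusted p 4.36e-07 and 5.41e-07). The deviations of the 2 probes from their stage means correlated at 0.983, 0.971 and 0.960 in these pairs, so replicate differences were shared as well.

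Other neighbours ran in opposite directions. CUST_51 rose in adults to 12.80, 12.50 and 12.28 from P21 values of 7.40, 8.08 and 7.83, a rise of 4.76 (SE 0.29, adjusted p 3.70e-09). Its neighbour CUST_52 was among the brightest probes, and fell from 17.10, 17.14 and 17 at E12.5 to 15.45, 15.37 and 15.45 in adults, a fall of 1.65 (SE 0.15, adjusted p 8.21e-08). The 2 correlated at -0.92. CUST_52 and CUST_53 correlated at -0.85, since CUST_53 rose by 6.68 from P14 to P21 (adjusted p 1.62e-07). CUST_2 and CUST_3 correlated at -0.88. CUST_3 fell from 12.13, 10.70 and 12.16 at E12.5 to 8.47, 8.09 and 8.42 in adults, and CUST_2 rose by 1.06 between these stages (adjusted p 0.00434) with overlapping arrays, because its E12.5 replicate 2 read 12.54 and the other 2 read 11.16 and 11.15.

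Runs of 3 or more successive numbers with every adjacent correlation at or above 0.9 numbered 8, all in PI426409190. The longest was CUST_232 to CUST_236, with adjacent correlations of 0.91 to 0.99. Adult means in this run were 16.24, 13.75, 13.47, 13.97 and 11.95, so the probes shared a course at different signals. Signals of different probes are not comparable as amounts. At P14 the means were 5.97, 4.51, 3.02, 7.99 and 4.28, and the call downward from P7 was made in the first 3 probes. CUST_236 moved by -1.64 without overlap and missed the call (limma adjusted p 0.072), while CUST_235 moved by 0.03. CUST_234 read 6.95, 6.58 and 6.35 at P7, 2.44, 3.82 and 2.81 at P14 and 12.30, 10.91 and 11.68 at P21, a fall of 3.61 (SE 0.43, adjusted p 3.10e-05) and a rise of 8.61 (adjusted p 4.06e-10).

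CUST_238 to CUST_241 formed a run with adjacent correlations of 0.97 to 1.00. The fall from P7 to P14 was called in CUST_238, CUST_239 and CUST_241, while CUST_240 moved by -1.55 (limma adjusted p 0.0871). CUST_239 read 9.74, 9.51 and 9.93 at P7, 5.83, 6.20 and 5.86 at P14 and 15.07, 15.25 and 15.34 at P21, a rise of 9.26 (SE 0.23, adjusted p 9.12e-13). CUST_240 and CUST_241 were dimmer, with P21 values of 11.53, 9.28 and 10.42 and of 12.38, 10.21 and 11.26. In both, replicate 1 was the highest P21 array, whereas in CUST_224 and CUST_219 it was the lowest.

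The run CUST_53 to CUST_56 joined probes of different late-rising profiles, at adjacent correlations of 0.91 to 0.96. CUST_54 and CUST_56 had the early rise to E15.5 (2.64 and 2.92, limma adjusted p 1.89e-04 and 9.06e-08). CUST_53 and CUST_55, which moved by 0.37 and 0.86, were not called there. CUST_56 read 17.30, 17.31 and 17.29 in adults and CUST_55 read 11.43, 12.10 and 11.94. The other runs were CUST_9 to CUST_11, CUST_58 to CUST_60, CUST_80 to CUST_82, CUST_94 to CUST_96 and CUST_220 to CUST_222.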

How the data were processed

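Values are the log2 signals the authors deposited in one table of 18 arrays. Per the labels' protocols, testis RNA was extracted with Trizol, treated with DNase, cleared of rRNA and labelled with Cy3 by random priming. Per the submitters' processing notes, Agilent Feature Extraction 11.0.1.1 was used. The log base was inferred from the values, the authors' normalization is not given in the sources used here, and no further normalization was applied. Scanner files and detection calls were not used here. Precision is limited by the number of arrays.

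All 37820 probes were fitted with a mean for each stage in limma 3.58.1 in R 4.3.3 (12 residual degrees of freedom, to which the prior added 3.20). The 6 contrasts and the F test over the 5 adjacent intervals were adjusted by Benjamini-Hochberg over all probes, and calls needed an adjusted p under 0.05 and a change (for the F test, a range of stage means) of at least 1. The fitting was tested on simulated data. Members and lists were chosen with earlier results of these data known.

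Probes were named by rule: per stage, the 3 with the largest lead of the highest stage among differing probes; per contrast, the largest called rise and fall without overlap; the 3 brightest, the 3 dimmest and the 3 of smallest range at or above the median signal; the 3 most and 3 least correlated neighbouring pairs; and the 3 longest runs. CUST_81, CUST_109, CUST_113, CUST_123, CUST_226 and CUST_253 were added after their values were seen, as were the split by suffix and the interval profiles. No gene marker list could be tested. Same-numbered arrays of different stages had deviations correlated at -0.366 to 0.505 over 45 pairs, with 14 above 0.1. Differently numbered arrays ran from -0.54 (E12.5 replicate 2 and P7 replicate 1) to 0.525 (E12.5 replicate 3 and P7 replicate 1). For 9 of the 18 arrays, the best correlated array of another stage had the same number. These correlations cannot settle whether the numbers pair the samples. Alternatives were other scalings, thresholds, filters, tests, array subsets and leaving out each array.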

Additional observations from a re-analysis of the deposited data

How the results depend on the processing

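Of 3489 recomputed values for 131 results under 32 settings, 3155 were labelled as kept and 325 as moved, and 9 lost their call. A count was kept when it stayed within a fixed ratio of its main value, so kept counts could still shift. The 122 calls from E12.5 to E15.5 were labelled kept at 87 and at 160 when single arrays were left out. Changes were kept when direction and side of the threshold held. Correlations, shares and brightness were kept when they stayed within a spread over arrays or over leaving out arrays. The cause of these moves was not tested unless the setting states it. With the 6 arrays of the compared stages alone, CUST probes called from E12.5 to E15.5 numbered 76 (26 lower), rises from P7 to P14 47 and falls from P21 to adult 51. At an adjusted p under 0.01, rises from P7 to P14 numbered 17, falls from P14 to P21 20 and falls to adult 53. With no minimum change, falls from P14 to P21 numbered 56. When limma's treat tested for changes beyond 2-fold, calls from E12.5 to E15.5 numbered 42 (27 higher, 15 lower), to P7 16 (5 and 11), to P14 22 (2 and 20), to P21 64 (1 lower) and to adult 50 (41 and 9), and falls from E12.5 to adult numbered 81. Without the 2 arrays that stood apart, rises from P7 to P14 numbered 48, falls from P14 to P21 51, and probes highest at P14 and P21 19 and 61. Leaving out single arrays gave 17 to 44 rises from P7 to P14, 13 to 58 probes highest at P21, and median correlations of 0.2295 to 0.2717 for neighbours and 0.05553 to 0.0892 for all pairs. With quantile normalization these 2 medians were 0.2064 and 0.06566, and with centring 0.2395 and 0.06375. The all-pairs median was 0.05434 without the 2 arrays. The neighbour median was 0.3905 without the dimmest probes, 0.2527 with E12.5 replicates 1 and 3 averaged, 0.4143 for pairs that differed between stages, 0.3848 for pairs at or above the median signal, and 0.1755 with Spearman's correlation. The median brightness was 8.876 without the dimmest probes, a shift built into that filter. Among named changes, that of CUST_61 to P21 (adjusted p 0.0749) and that of CUST_280 to P14 (adjusted p 0.244) were not called by the treat test. With the replicate block, 360 CUST probes differed between stages and 292 were called between E12.5 and adult, and the block changed no call on a named change.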

Other observations

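Some CUST probes had near copies of their values among the other deposited probes. For 50 of the 527, the most similar other probe differed by a mean of less than 0.1 over the 18 arrays, and 24 of these had a range of stage means of at least 2. The suffix was PI426409190 for 46 and PI426073487 for 4. The most similar probe was another CUST probe for 16, a probe of the ASMM9PARTA family for 30, one with lincRNA in its identifier for 3 and a sequence record for 1. The search was made for CUST probes alone, so no share over all probes stands beside these counts. Nor was the share of each family in the whole table set beside them. A flat probe can match by level: CUST_40 had a range of 0.25 and correlated at 0.62 with its most similar probe. CUST_109 and CUST_123, chosen after their values were seen, differed by a mean of 0.039, with adult values of 16.27, 16.10 and 16.05 and of 16.15, 16.06 and 16.13. CUST_232 and CUST_253 differed by a mean of 0.059 over a range of 10.3. CUST_113 and ASMM9PARTA010490 differed by 0.053 over a range of 7.45, CUST_133 and ASMM9PARTA047587 by 0.071 over 8.82, and CUST_819_PI426073487 and mouselincRNA1606-_P1 by 0.073 over 4.65. Whether such probes share sequence or target was not tested.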
